A study of Homo sapiens with 24 samples.

Results

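The genes described here are 47 genes of the cell division cycle and of DNA replication, followed across 24 RNA-seq libraries of ARPE-19, an immortalized human cell line with features of the retinal pigment epithelium (RPE). They were chosen by name as the cyclins, kinases, replication genes and mitosis genes of the count table, 47 of its 60623 genes, and all 47 were among the 24873 genes with at least 10 counts in all libraries together that were tested. The rule used gene names and no measured value, but the members were chosen with earlier results of these data known. The study asked what the level of EMP2, epithelial membrane protein 2, does to these cells under normal and low oxygen. The 4 lines sequenced were unmodified wild type (WT), a vector control (VC) and an EMP2 overexpressing line (OE) made by retroviral transduction, and an EMP2 knock down line (KD), each in normoxia and after 4 h in a chamber with 0.5% oxygen (the study methods give a range of 2 to 4 h), with 3 libraries for each of the 8 groups. All cultures were kept for 2 weeks in normoxia with serum before the exposure. The study methods name a lentiviral short hairpin RNA, so that KD differs from VC and OE also in its vector, and a control hairpin line is not analysed here. The labels name the OE cells of the third set of libraries OE1 and those of the first and second sets OE2, and they do not say which knock down clone was used. Replicates are numbered by set, but nothing says that they came from separate cultures. The spread behind each p-value is that between the libraries of a group, estimated jointly over all 8 groups, and may be technical.

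A cell enters division when D-type cyclins, with the kinases CDK4 and CDK6, and then cyclin E, with CDK2, release the E2F transcription factors from the retinoblastoma pocket proteins. E2F switches on the genes that license replication origins, build the replication fork and make deoxynucleotides, and later the transcription factors MYBL2 and FOXM1 switch on the cyclins and spindle genes of G2 phase and mitosis. RPE cells in the adult eye do not normally divide, whereas ARPE-19 cells divide in culture and slow when crowded. In bulk RNA, fewer cells in a phase of the cycle and less RNA per cell in that phase cannot be told apart.

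Library totals ran from 10796813 to 19779450 counts with a median of 15992615, and 3 counts corresponded to 0.150 to 0.252 CPM (a gene's counts per 1000000 of its library, scaled by TMM, the trimmed mean of M-values). The targeted gene followed its labels. EMP2 averaged 54.6 ± 0.920 CPM (SD, n = 3) in normoxic WT, and its log2 fold change against WT was 3.42 in OE and -2.16 in KD in normoxia. VC stood at -0.10 (not called). All 14 RPE marker genes had counts in normoxic WT, with summed levels of 5204 to 5526 CPM there against 1582 to 1679.5 in VC, 3054 to 3361 in OE and 3496 to 3594 in KD. EFEMP1 made up most of these sums, except in VC, and without it they were 1098 to 1174, 842 to 932, 1117 to 1199.8 and 898 to 941 CPM in the same order. In hypoxia the RPE sum was 5388 to 5696 CPM in WT, 1769 to 1929 in VC, 3312 to 3890.0 in OE and 4157 to 4441 in KD. It was 1019 to 1088, 849.5 to 862, 1193 to 1754 and 898 to 980.1 without EFEMP1, with RPE65 at 0 in hypoxic VC and KD. Of 12 endothelial markers, 10 had counts in normoxic WT, 12 in VC, 9 in OE and 10 in KD. In the same order their sums were 55.9 to 65.4, 65.2 to 71.1, 16.5 to 17.8 and 384 to 393 CPM in normoxia. In hypoxia they were 77.7 to 83.0, 94.4 to 98.3, 11.3 to 19.4 and 546 to 552. The normoxic KD sum was mostly ROBO4 (182 CPM) and TIE1 (171). The endothelial genes PECAM1 (0.150), VWF (0.789) and CDH5 (0) were under 1 CPM there. EGFL7 averaged 28.4 CPM in normoxic KD against 3.37 in WT, and KDR 5.24 against 3.42. CDH5 was the only gene of the list with a lower mean than in WT (0.0339 CPM). Of 12 neuroretina markers, 5 had counts in normoxic WT, 8 in VC, 5 in OE and 4 in KD, and 4, 5, 4 and 4 in hypoxia. Their sums were 173 to 180.4, 232 to 249, 146 to 154 and 184 to 186 CPM in normoxia. In hypoxia they were 226 to 227, 237 to 252, 184 to 197 and 174 to 177. GLUL made up most of these sums, with normoxic means of 169 CPM in WT, 191 in VC, 143 in OE and 176 in KD. CALB1 averaged 27.0 CPM in normoxic VC against 0.0478 in WT, and LHX1 5.97 against 0.0239. The part of these marker differences in the results below was not tested. In the first hypoxic OE library the gene counts came to 64.9% of the uniquely mapped reads, against 90.0% to 91.5% in the other 23, and the counts and some of the genes that rest on hypoxic OE are also given without it. Leaving it out kept 32 of 32 member calls of hypoxic OE against WT and 8 of 8 of hypoxia in OE. It kept 28 of 30 of hypoxic OE against VC, where the calls of E2F2 and FOXM1 ended. Of the differences between responses it kept 16 of 18 calls in OE minus WT, without CDKN2C and MCM6, and 14 of 15 in OE minus VC, without MCM6. No log2 fold change of a member but CCND2 shifted by more than 0.26 in these 5 comparisons.

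The replication genes and the mitosis genes gave different results below, and their promoters are shown first because they differ in sequence too. RefSeq promoters (GRCh38.p14, 250 bases before to 50 after the gene start of the RefSeq entry) were found for 35 of the 47 members. There was no entry for CCND1, CCND2, CCNE2, CDK2, MCM4, MCM5, FOXM1, AURKA, BIRC5, UBE2C, TPX2 and CDKN1C. Searches on both strands covered the E2F motif (TTCGCGC, with its variants TTGGCGC, then TTCCCGC, and also TTGCCGC), to which E2F proteins bind, the CHR motif (TTTGAA), the cell cycle genes homology region read by MuvB complexes, and the CCAAT box (CCAAT), bound by NF-Y. Of these, TTGGCGC and its partners can overlap one another on opposite strands. An E2F motif of these exact spellings was in 8 of 8 promoters of the licensing and fork genes and in 0 of 8 of the mitosis genes, against 13.0% of all 35116 promoters of 300 bases. Other spellings were not searched. A CHR motif was in 6 of 8 mitosis promoters and 0 of 8 licensing and fork promoters, against 15.2% of all promoters. CCAAT boxes were in 7 and 6 of them, against 34.6%.

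The 6 chosen promoters follow, 5′ to 3′ in the direction of the gene, in lower case with matches to any of the 3 motifs in capitals. TOP2A, MYBL2, AURKB and CDC20 are the G2 and mitosis members with the largest fall in normoxic KD that have an entry. MCM6 and PCNA are the licensing and fork members with the largest fall in hypoxic WT, and this pair was picked after the values were seen. The positions are TOP2A at chr17:40417847-40418146 (minus strand), MYBL2 at chr20:43666864-43667163 (plus strand), AURKB at chr17:8210176-8210475 (minus strand), CDC20 at chr1:43358731-43359030 (plus strand), MCM6 at chr2:135876394-135876693 (minus strand) and PCNA at chr20:5126573-5126872 (minus strand).
TOP2A: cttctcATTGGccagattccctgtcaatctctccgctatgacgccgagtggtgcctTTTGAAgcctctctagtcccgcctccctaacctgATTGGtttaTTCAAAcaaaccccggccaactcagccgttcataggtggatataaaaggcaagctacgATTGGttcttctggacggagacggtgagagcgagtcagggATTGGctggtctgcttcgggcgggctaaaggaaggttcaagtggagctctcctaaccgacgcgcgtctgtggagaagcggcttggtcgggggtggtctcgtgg
MYBL2: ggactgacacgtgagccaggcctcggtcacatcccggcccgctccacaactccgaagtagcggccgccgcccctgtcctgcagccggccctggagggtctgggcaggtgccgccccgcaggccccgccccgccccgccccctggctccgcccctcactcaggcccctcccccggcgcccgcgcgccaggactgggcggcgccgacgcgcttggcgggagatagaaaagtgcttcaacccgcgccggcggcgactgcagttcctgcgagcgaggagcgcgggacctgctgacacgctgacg
AURKB: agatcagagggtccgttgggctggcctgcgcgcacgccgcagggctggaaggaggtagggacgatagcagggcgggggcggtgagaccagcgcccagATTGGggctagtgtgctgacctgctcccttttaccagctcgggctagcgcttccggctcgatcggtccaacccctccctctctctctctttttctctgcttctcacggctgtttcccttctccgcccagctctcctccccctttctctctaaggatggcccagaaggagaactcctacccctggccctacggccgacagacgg
CDC20: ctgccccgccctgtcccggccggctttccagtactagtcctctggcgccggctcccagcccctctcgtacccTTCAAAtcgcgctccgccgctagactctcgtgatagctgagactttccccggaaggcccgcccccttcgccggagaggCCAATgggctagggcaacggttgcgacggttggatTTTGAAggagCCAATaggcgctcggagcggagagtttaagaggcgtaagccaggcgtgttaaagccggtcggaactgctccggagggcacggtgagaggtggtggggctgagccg
MCM6: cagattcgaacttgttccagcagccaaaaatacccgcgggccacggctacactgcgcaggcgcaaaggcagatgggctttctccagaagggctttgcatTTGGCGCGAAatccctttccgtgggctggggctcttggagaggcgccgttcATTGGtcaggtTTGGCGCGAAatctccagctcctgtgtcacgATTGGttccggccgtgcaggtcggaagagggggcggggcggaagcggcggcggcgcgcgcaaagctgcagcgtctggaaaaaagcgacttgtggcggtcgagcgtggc
PCNA: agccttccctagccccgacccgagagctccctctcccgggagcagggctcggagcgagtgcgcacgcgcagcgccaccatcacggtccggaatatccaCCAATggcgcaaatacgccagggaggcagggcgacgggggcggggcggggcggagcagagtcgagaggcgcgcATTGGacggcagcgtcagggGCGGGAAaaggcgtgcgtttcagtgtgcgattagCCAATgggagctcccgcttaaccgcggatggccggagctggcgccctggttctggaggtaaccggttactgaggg
The CDC20 promoter holds 2 CHR motifs and 2 CCAAT boxes, and that of TOP2A holds 2 and 4. The MCM6 promoter has the run TTGGCGCGAA at 2 places, where an E2F motif reads on both strands, and PCNA has a single E2F motif. MYBL2 had none of the searched spellings of the 3 motifs in this window and AURKB had a CCAAT box alone, which says nothing about the factors themselves. The AURKB window lies inside the gene by its GENCODE position, 8204733 to 8210600.

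Levels in normoxic WT gave the starting point. Per kilobase of the canonical transcript, CCND1 was by far the highest member at 394 ± 41.9 CPM per kb (SD, n = 3), with PCNA at 102 ± 5.30 and CDK4 at 76.6 ± 3.12. The RNA of CCND1, which encodes cyclin D1, was thus measured at a far higher level than that of CCND3, for cyclin D3 (15.9 ± 0.775 CPM per kb). These libraries do not measure protein. The RNA of CCND2, for cyclin D2, was at the limit of detection. CCND2 had 0 counts in 15 of the 24 libraries and 11 at most. Apart from 1 count in normoxic KD 2, all of its counts fell in the third library of a group, and it passed no test. Among the other members, E2F2 (1.05 ± 0.0689 CPM per kb), CDC25C (1.41 ± 0.247 CPM per kb) and CDKN1C (1.93 ± 0.384 CPM per kb) were lowest. The mitosis genes ran from 2.63 CPM per kb (BUB1B) to 27.4 (UBE2C).

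The comparison of each line with WT in normoxia asked how a lasting change of EMP2, or of the vector alone, goes with the cycle genes. In KD, 32 of 47 members were lower (edgeR quasi-likelihood test, Benjamini-Hochberg adjusted p under 0.01 over all genes tested), against 9.71% of all tested genes lower, 6.61% higher and 16.3% called in either direction, and the median log2 fold change of the members was -0.73 against 0.00 for all genes. Higher calls numbered 0, also at an unadjusted p under 0.05 and by DESeq2. In OE, 18 members were lower and 4 higher, against 10.2% and 9.48% of all genes (19.7% in either direction), with a median of -0.28. The vector control did not leave the cycle genes as they were in WT. In VC, 17 members were higher and 9 lower, against 19.8% and 16% of all genes (35.8% in either direction), so the count of higher members was above the background and that of lower ones was close to it. Set against VC instead of WT, OE had 24 members lower and 4 higher, with 18.1% and 15.4% in the background (33.5% in either direction). OE and KD are both compared with the same WT libraries, and OE appears in both of its comparisons, so these counts are not independent of each other. A joint F-test over KD, WT and OE called 37 members in normoxia against 31.4% of all genes. The shares of all genes given here and below include genes of low counts, where a difference is harder to call. By mean level in normoxic WT, the members but CCND2 ranked above 53.1% (CDC25C) to 99.8% (CCND1) of the tested genes. The part of level in the excess of member calls was not tested.

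In hypoxia the count of members that differed from WT was close to that of normoxia in KD and higher in OE. KD had 32 of 47 members lower than WT and 1 higher, against 9.31% and 8.91% of all genes (18.2% in either direction). OE had 26 lower and 6 higher, against 13.0% and 13.6% (26.6% in either direction), and 26 lower and 7 higher without the first hypoxic OE library. VC had 19 lower and 10 higher, against 18.0% and 21.9% (39.9%). OE against VC gave 20 lower and 10 higher, against 20.3% and 17.9% (38.2%), and 20 and 9 without that library. The joint F-test called 42 members against 38.0% of all genes. The hypoxic WT libraries were themselves shifted by low oxygen, as described with the response of each line.

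**Figure D1:**
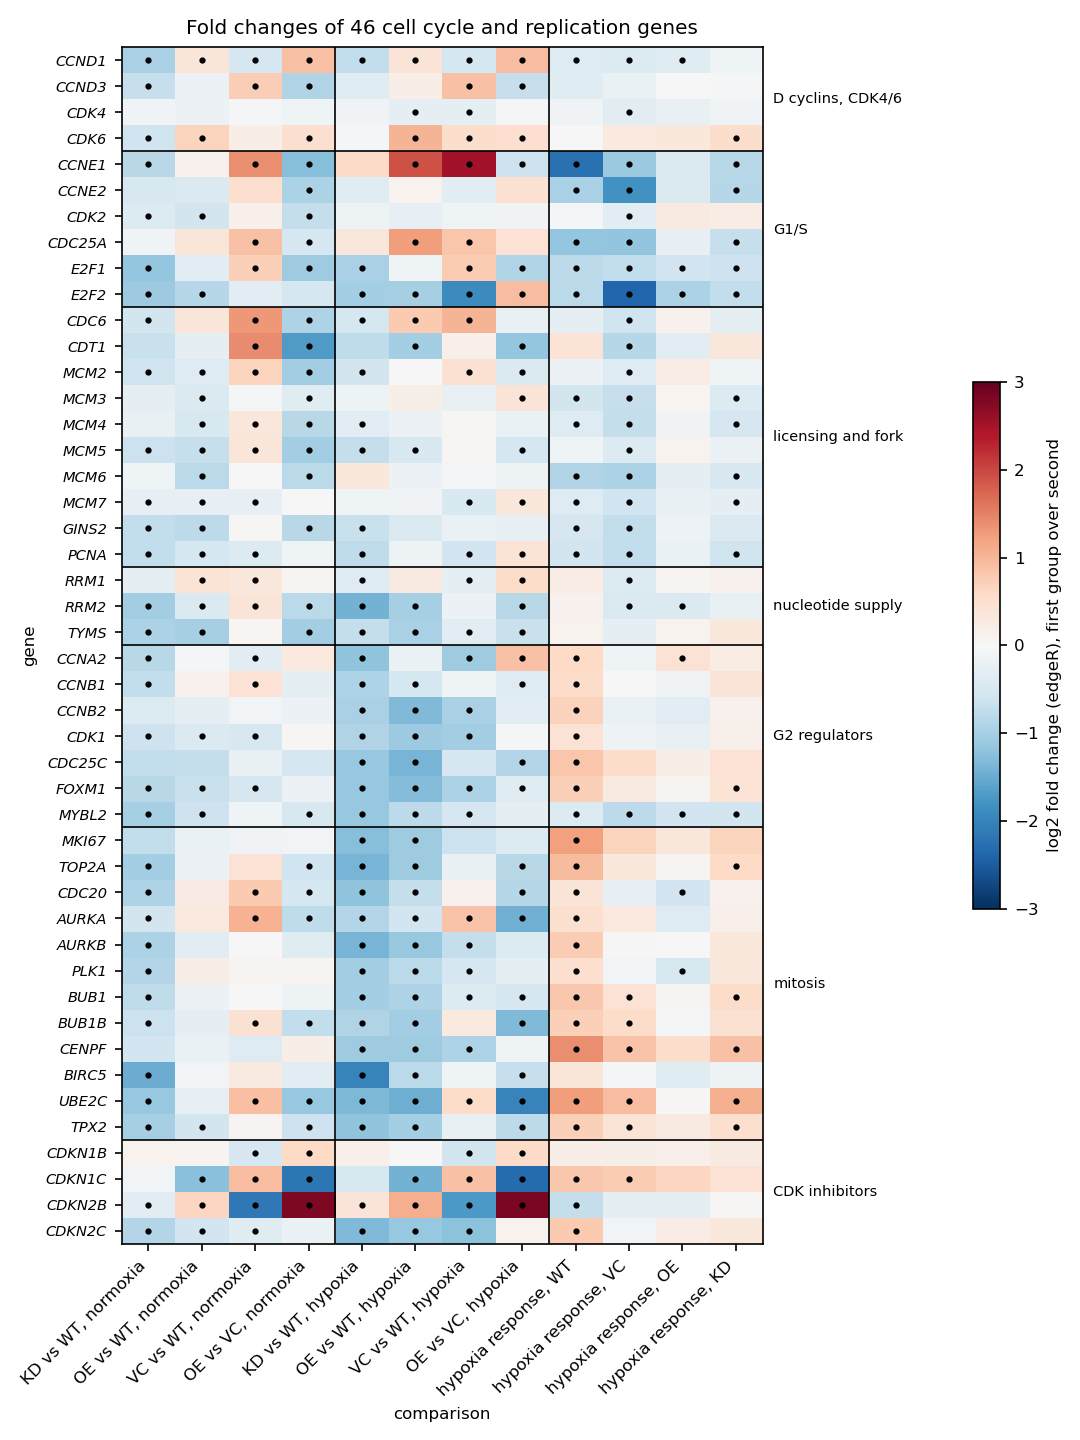
Colour gives the log2 fold change of each member (rows, grouped by role) in 12 comparisons (columns, first group over second, n = 3 libraries per group), and a dot marks an edgeR adjusted p under 0.01. CCND2 is left out for its low counts. The KD column in normoxia has 32 calls, all blue (lower in KD), while the OE column in normoxia has 1 call among the 12 mitosis genes and 12 in hypoxia.

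The D-type cyclins and their kinases couple growth signals to the start of the cycle, and CCND1 (ENSG00000110092, chromosome 11, 69641156 to 69654474 in GRCh38) had the highest level of all members. CCND1 read 1808, 1730.0 and 1469 CPM in the 3 normoxic WT libraries (replicates 1 to 3 in this order here and below), 2144, 2167 and 2153 in OE, 865, 891 and 782 in KD and 1197, 1211 and 1133 in VC. OE lay above every WT library, and KD and VC lay below every one. The log2 fold change against WT was -0.98 ± 0.09 (SE) in KD (adjusted p = 1.91e-10), -0.50 ± 0.09 in VC (adjusted p = 1.18e-05) and 0.37 ± 0.08 in OE (adjusted p = 0.00109), and the last call ended without normoxic WT 3 (0.27, adjusted p = 0.0180). Against VC, CCND1 was higher in OE by 0.87 ± 0.09 (adjusted p = 6.69e-10). The order of the lines held in hypoxia, with 1433, 1760.5 and 1850.5 CPM in OE, 1348, 1235 and 1270.2 in WT, 841, 919 and 905 in VC and 839, 749 and 729 in KD, where the first OE library was the lowest of its group.

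The gene of cyclin D3, CCND3, went the other way from that of cyclin D1 in VC and the same way in KD. CCND3 was higher in VC than in WT (log2 fold change 0.73 ± 0.11, adjusted p = 1.15e-06; 52.5, 53.5 and 54.2 against 33.7, 30.6 and 32.3 CPM), was lower in KD (19.4, 19.9 and 20.9 CPM; -0.68 ± 0.11, adjusted p = 1.82e-05), and in OE read 28.7, 29.6 and 27.5 CPM (-0.17 ± 0.11, not called). CDK6, a catalytic partner of both cyclins, was higher in OE by 0.67 ± 0.11 in normoxia (adjusted p = 3.38e-05) and by 1.02 ± 0.11 in hypoxia (adjusted p = 4.77e-08). In KD it was lower in normoxia (-0.59 ± 0.11, adjusted p = 2.50e-04), a call that ended without normoxic KD 2 (-0.48, adjusted p = 0.010), and stood at -0.04 in hypoxia (not called). CDK4, the other partner, ranged from -0.18 to -0.06 in the 3 lines in normoxia with no call, though 44.2% of its exonic bases lie in exons of TSPAN31 on the other strand and it is not stated whether counting used the strand. In hypoxia CCND3 (0.89 ± 0.11) and CDK6 (0.52 ± 0.11) were higher in VC, and CDK4 was lower in VC (-0.28 ± 0.08, adjusted p = 0.00287) and in OE (-0.30 ± 0.08, adjusted p = 0.00199), but these CDK4 calls ended without hypoxic VC 2 or hypoxic WT 2 for VC (adjusted p = 0.0149 to 0.0217) and without hypoxic OE 3 or hypoxic WT 2 for OE (adjusted p = 0.0165 to 0.0201).

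Of the 6 G1/S genes, 3 were higher in VC than in WT in normoxia. CCNE1, which encodes cyclin E1, the partner of CDK2 (ENSG00000105173, chromosome 19, 29811991 to 29824312), read 11.4, 13.6 and 11.6 CPM in normoxic VC against 4.77, 4.78 and 4.23 in WT, 5.34, 5.07 and 4.60 in OE and 2.65, 2.49 and 2.67 in KD. All VC libraries were above all WT libraries and all KD libraries below them, with log2 fold changes of 1.40 ± 0.14 for VC (adjusted p = 1.57e-09) and -0.82 ± 0.16 for KD (adjusted p = 2.19e-04), and 0.12 ± 0.15 for OE (not called). CDC25A, the phosphatase that activates CDK2, was higher in VC (0.87 ± 0.14, adjusted p = 6.98e-06), as was E2F1, the first of the E2F activators (0.72 ± 0.11, adjusted p = 2.30e-06). E2F1 read 23.5, 24.1 and 20.9 CPM in normoxic WT and 10.2, 10.5 and 9.97 in KD, so that no library overlapped, and it fell by 1.16 on the log2 scale (adjusted p = 5.94e-09). E2F2, another activator with low counts, was lower in KD (-1.09 ± 0.18, adjusted p = 2.75e-05) and in OE (-0.85 ± 0.18, adjusted p = 5.05e-04), and CDK2 was lower in OE (-0.56 ± 0.10, adjusted p = 6.32e-05). In KD, CDK2 stood at -0.41 ± 0.10 (adjusted p = 0.00275), and that call ended without any 1 of normoxic KD 1, 2 and 3 and normoxic WT 1 and 2 (-0.38 to -0.33, adjusted p = 0.0127 to 0.0284).

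In hypoxia CCNE1 gave the largest difference from WT among these 6 genes. It read 1.01, 0.828 and 1.09 CPM in hypoxic WT, 4.97, 5.85 and 6.16 in VC, 3.47, 3.85 and 3.74 in OE and 1.84, 1.09 and 1.43 in KD, and was higher than WT by 2.53 ± 0.19 in VC (adjusted p = 1.16e-12) and by 1.92 ± 0.20 in OE (adjusted p = 2.70e-09), while KD stood at 0.57 ± 0.23 (not called). CDC25A was higher in OE (1.26 ± 0.16, adjusted p = 2.58e-07) and VC (0.83 ± 0.17, adjusted p = 1.02e-04). E2F2 was lower than WT in all 3 lines, with log2 fold changes of -1.92 in VC, -1.01 in KD and -0.99 in OE, at 0.684, 0.852 and 0.921 CPM in VC against 2.97, 3.25 and 3.12 in WT. E2F1 was lower in KD in hypoxia too (-0.98 ± 0.13, adjusted p = 9.94e-07) and higher in VC (0.77 ± 0.12, adjusted p = 1.97e-06). OE without its first hypoxic library gave 1.94 for CCNE1, 1.15 for CDC25A and -1.08 for E2F2.

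The licensing and fork genes held 8 of the 18 lower calls of OE against WT in normoxia. CDC6 and CDT1 load the MCM2 to MCM7 helicase onto origins, GINS2 is part of the active helicase and PCNA is the sliding clamp of the polymerases. In OE 8 of 10 were lower than WT, with a median log2 fold change of -0.46, and against VC 8 of 10 were lower (-0.84). MCM6 (ENSG00000076003, chromosome 2, 135839626 to 135876443) read 41.4, 47.2 and 34.2 CPM in OE against 79.6, 71.4 and 66.0 in WT and 72.8, 69.6 and 74.4 in VC. The OE libraries all lay below those of WT and VC, at -0.82 ± 0.11 against WT (adjusted p = 1.11e-06), and the largest falls beside it were -0.80 for GINS2 and -0.68 for MCM5. KD had 6 of 10 lower (-0.58), led by PCNA (72.9, 81.4 and 79.6 CPM against 130.1, 123 and 136 in WT; -0.73 ± 0.07, adjusted p = 1.94e-09), GINS2 (-0.73 ± 0.14) and MCM5 (-0.65 ± 0.09), whereas MCM6 stood at -0.13 ± 0.11 (not called) at 66.8, 68.2 and 63.2 CPM.

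VC had 5 of these 10 higher and 2 lower. CDT1 read 38.6, 40.5 and 37.5 CPM in VC against 15.8, 14.7 and 13.3 in WT, 12.1, 15.0 and 8.78 in OE and 7.83, 10.7 and 8.76 in KD, so that every VC library was above every library of the other lines (VC against WT 1.41 ± 0.20, adjusted p = 4.07e-06). CDC6 was higher in VC by 1.30 ± 0.11 (adjusted p = 2.33e-11) and MCM2 by 0.66 ± 0.09 (adjusted p = 1.89e-07). Going against them, PCNA was lower in VC (-0.41 ± 0.07, adjusted p = 1.57e-05) and MCM7 too (-0.24 ± 0.06, adjusted p = 0.00278), the MCM7 call ending without normoxic WT 2 (-0.22, adjusted p = 0.0109).

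In hypoxia the fall of these genes in OE was mostly not called. OE had 2 of 10 lower than WT, CDT1 (-1.02 ± 0.21, adjusted p = 6.33e-04) and MCM5 (-0.46 ± 0.09, adjusted p = 1.46e-04), and CDC6 was higher (0.79 ± 0.11, adjusted p = 1.67e-06). Without the first hypoxic OE library these were -0.81, -0.35 and 0.74. CDT1 spread widely in hypoxic OE, at 5.78, 13.8 and 8.68 CPM. KD had 6 of 10 lower, with PCNA at -0.76 ± 0.07 (adjusted p = 1.85e-09) and MCM5 at -0.71 ± 0.09 (adjusted p = 4.31e-07). In VC, CDC6 (1.01 ± 0.11) and MCM2 (0.46 ± 0.09) were higher and PCNA (-0.57 ± 0.07) and MCM7 (-0.45 ± 0.06) lower.

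**Figure D2:**
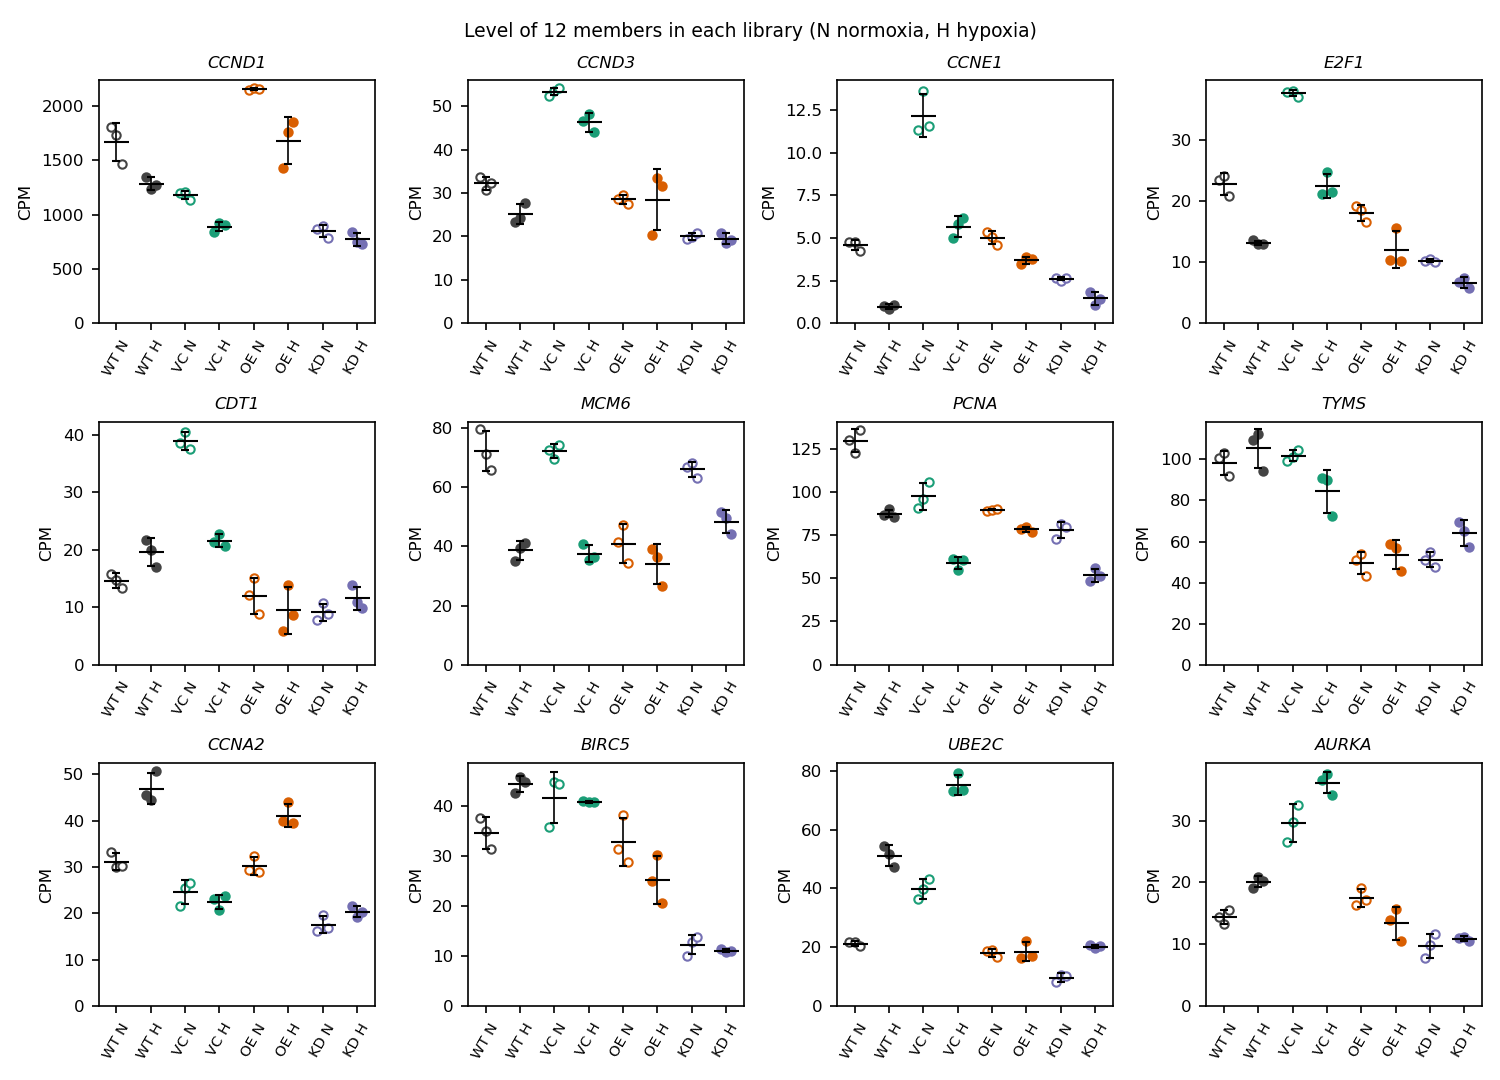
Each panel gives the level of 1 member in CPM (vertical axis, from 0) in the 24 libraries, by line and oxygen level (N normoxia, open points, H hypoxia, filled points), with the mean and SD of the 3 libraries in black. VC stands above the other lines for CCND3, CCNE1 and E2F1 in normoxia, and KD is lowest for BIRC5 at both oxygen levels.

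Of the genes that supply deoxynucleotides, TYMS, thymidylate synthase, and RRM2, the inducible subunit of ribonucleotide reductase, were lower in both KD and OE. TYMS read 101, 103 and 91.8 CPM in normoxic WT, 99.4, 101 and 105 in VC, 51.1, 53.9 and 43.4 in OE and 51.2, 55.0 and 47.5 in KD. OE and KD did not overlap with WT or VC. TYMS stood at -0.99 ± 0.10 in OE (adjusted p = 3.48e-09) and -0.94 ± 0.10 in KD (adjusted p = 1.49e-08) against WT, but 47.9% of the exonic bases of TYMS lie in exons of ENOSF1 on the other strand, so reads of the pair could not be told apart if the strand was not used. RRM2 fell by 1.05 in KD (adjusted p = 1.78e-11) and by 0.44 in OE (adjusted p = 6.69e-05). RRM1, the other subunit, went the other way in OE, higher by 0.41 ± 0.09 (adjusted p = 3.88e-04). In hypoxia RRM2 read 58.1, 59.0 and 61.8 CPM in WT, 53.8, 53.3 and 50.6 in VC, 30.9, 31.1 and 27.0 in OE and 23.1, 22.4 and 21.8 in KD, without overlap of OE or KD with WT, at -1.41 ± 0.08 in KD and -1.01 ± 0.08 in OE. TYMS was at -0.72 ± 0.10 and -0.97 ± 0.10, and RRM1 was lower in KD (-0.39 ± 0.09, adjusted p = 9.86e-04). In VC, RRM2 was higher than WT in normoxia (0.38 ± 0.08, adjusted p = 1.54e-04).

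Among the G2 regulators, KD was lower for 5 of 7 in normoxia and for 7 of 7 in hypoxia. MYBL2, the activator of late cycle genes, read 16.6, 17.5 and 18.5 CPM in normoxic KD against 37.6, 36.3 and 31.5 in WT (-1.01 ± 0.11, adjusted p = 2.53e-08), FOXM1, a transcription factor of G2, was at -0.84 ± 0.11 (adjusted p = 3.19e-07), and CCNA2, cyclin A2, at -0.83 ± 0.09 (adjusted p = 4.29e-08). OE had 3 of 7 lower in normoxia, namely FOXM1 (-0.67 ± 0.11), MYBL2 (-0.61 ± 0.11) and CDK1, the mitotic kinase (-0.42 ± 0.11, adjusted p = 0.00303, and adjusted p = 0.0103 to 0.0190 without any 1 of normoxic OE 3 and normoxic WT 1 and 2), while CCNA2 and CCNB1, cyclin B1, stood at -0.05 and 0.14 (not called). In hypoxia 6 of 7 were lower in OE, with CDC25C, the phosphatase of CDK1, at -1.39 ± 0.25 (adjusted p = 4.51e-05), CCNB2, cyclin B2, at -1.31 ± 0.12 (adjusted p = 2.06e-10) and FOXM1 at -1.31 ± 0.11 (adjusted p = 1.54e-11). CCNA2 was the exception at -0.19 ± 0.09 (not called), with 39.9, 43.9 and 39.4 CPM in OE against 45.5, 44.5 and 50.7 in WT and 23.1, 20.7 and 23.7 in VC, and it was higher in OE than in VC (0.87 ± 0.09, adjusted p = 2.98e-09). VC had 5 of 7 lower than WT in hypoxia, led by CCNA2 (-1.06 ± 0.09), CDK1 (-1.05 ± 0.11) and CCNB2 (-0.98 ± 0.12). In normoxia FOXM1 (-0.50 ± 0.11) and CDK1 (-0.47 ± 0.11) were lower in VC and CCNB1 went against them, at 0.43 ± 0.11 (adjusted p = 0.00131).

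The genes of chromosome segregation were lower in KD at both oxygen levels and in OE mainly in hypoxia. In normoxia KD was lower than WT for 10 of 12, with a median log2 fold change of -0.90, and OE for 1 of 12 (-0.19), TPX2, a spindle assembly factor (-0.55 ± 0.09, adjusted p = 2.47e-05). BIRC5 (ENSG00000089685, chromosome 17, 78214186 to 78225636), which encodes survivin, a subunit of the chromosomal passenger complex, read 37.6, 35.0 and 31.3 CPM in WT, 31.4, 38.1 and 28.9 in OE, 35.7, 44.9 and 44.3 in VC and 10.1, 12.9 and 13.9 in KD. KD lay far below all other libraries, at -1.50 ± 0.13 against WT (adjusted p = 1.39e-10), and OE and WT overlapped. UBE2C, the ubiquitin-conjugating enzyme of the anaphase-promoting complex, was at -1.13 ± 0.11 in KD (adjusted p = 1.83e-09) and TOP2A, which untangles sister chromatids, at -1.02 ± 0.14 (adjusted p = 7.33e-06). MKI67 and CENPF did not pass the edgeR test in normoxic KD, at -0.73 ± 0.23 (adjusted p = 0.0294) and -0.57 ± 0.16 (adjusted p = 0.0140). DESeq2 called all 12 lower.

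In hypoxia all 12 were lower than WT in KD (median -1.20) and all 12 in OE (-1.02). BIRC5 read 11.4, 10.8 and 11.0 CPM in KD, 25.0, 30.2 and 20.6 in OE, 41.0, 40.7 and 40.7 in VC and 42.7, 45.9 and 44.8 in WT, with no overlap of KD and WT (-2.00 ± 0.13, adjusted p = 4.71e-13). In KD the next largest falls were AURKB, the kinase of the passenger complex (-1.39 ± 0.16), and TOP2A (-1.39 ± 0.14). In OE they were UBE2C (-1.45 ± 0.10, adjusted p = 6.04e-13), AURKB (-1.13 ± 0.16) and MKI67, the proliferation antigen Ki-67 (-1.07 ± 0.23). Without the first hypoxic OE library these 3 values were -1.40, -1.08 and -1.05. The first hypoxic WT library was high for MKI67, with 233, 134 and 137 CPM in the 3 WT libraries, and for CENPF, a kinetochore protein, with 189.8, 124 and 135. Leaving it out gave -0.97 for MKI67 in KD and -0.75 in OE.

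VC was higher than WT in normoxia for 4 of these 12, AURKA, the spindle pole kinase (1.04 ± 0.12, adjusted p = 1.51e-08), UBE2C (0.90 ± 0.10, adjusted p = 7.00e-09), CDC20, which activates the anaphase-promoting complex (0.78 ± 0.10, adjusted p = 1.70e-07), and BUB1B, a checkpoint kinase (0.46 ± 0.12, adjusted p = 0.00247), the last call ending without normoxic VC 3 or WT 3 (adjusted p = 0.0212 to 0.0332). UBE2C read 36.6, 39.8 and 43.1 CPM in VC against 21.7, 21.8 and 20.4 in WT, 18.6, 18.9 and 16.6 in OE and 8.07, 10.7 and 10.3 in KD, without overlap of VC with any other line. In hypoxia AURKA (0.84 ± 0.12) and UBE2C (0.56 ± 0.09) were higher in VC and 4 others lower, of which CENPF (-0.93 ± 0.16), AURKB (-0.72 ± 0.15) and PLK1, the polo kinase (-0.50 ± 0.11) moved most. Against VC, OE was lower for 6 of 12 in normoxia and 8 of 12 in hypoxia, with UBE2C at -1.14 ± 0.10 and -2.01 ± 0.10.

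Set against VC, OE differed in some members for which it had not differed from WT. In normoxia the G1/S genes CCNE1 (-1.28 ± 0.14, adjusted p = 1.01e-08), E2F1 (-1.06 ± 0.11, adjusted p = 3.24e-09) and CCNE2 (-0.96 ± 0.19, adjusted p = 1.30e-04) were lower. Among the licensing genes CDT1 (-1.69 ± 0.20, adjusted p = 4.78e-07), MCM5 (-1.05 ± 0.09) and MCM2 (-1.04 ± 0.09) were lowest. Of the exonic bases of CCNE2, 37.1% lie in other genes, with INTS8 on the other strand the largest overlap. For MCM2 the share is 23.6%, with a gene without a symbol on the other strand the largest. In every comparison, reads of CCNE2 and MCM2 could not be told apart from those of these genes if the strand was not used. CCND3 was lower (-0.90 ± 0.11) where CCND1 was higher. MYBL2 was the 1 G2 regulator called (-0.48 ± 0.11, adjusted p = 6.11e-04). In hypoxia the licensing genes split, with CDT1 (-1.17 ± 0.21, adjusted p = 9.82e-05), MCM5 (-0.52 ± 0.09) and MCM2 (-0.44 ± 0.09) lower and PCNA (0.41 ± 0.07), MCM3 (0.40 ± 0.09) and MCM7 (0.35 ± 0.06) higher. RRM1 was higher (0.56 ± 0.09) while RRM2 (-0.83 ± 0.08) and TYMS (-0.66 ± 0.10) were lower. After UBE2C the mitosis genes lowest in hypoxic OE against VC were AURKA (-1.43 ± 0.12, adjusted p = 2.49e-11) and BUB1B (-1.32 ± 0.12, adjusted p = 1.74e-10). AURKA read 13.9, 15.7 and 10.5 CPM in hypoxic OE and 36.6, 37.5 and 34.2 in VC, without overlap, and 19.1, 21.0 and 20.2 in WT.

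**Figure D3:**
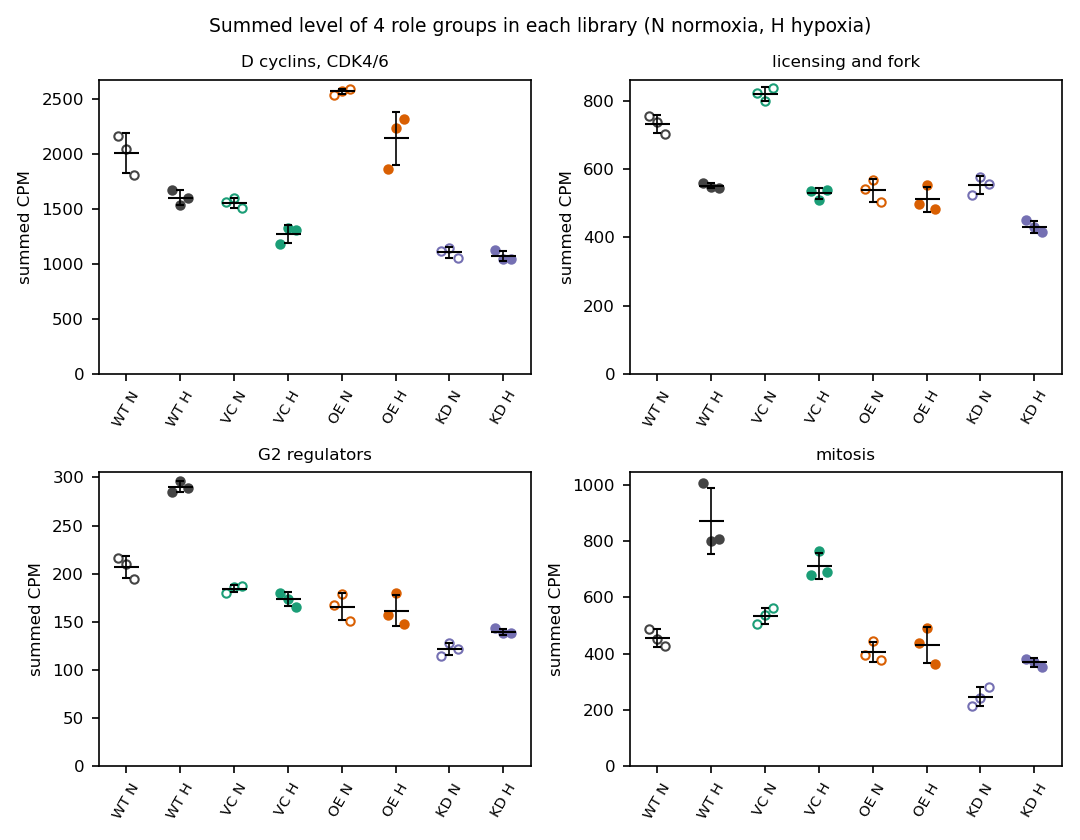
Each panel gives the CPM of the genes of 1 role group added together in each library (vertical axis, from 0), by line and oxygen level (N normoxia, open points, H hypoxia, filled points), with the mean and SD of 3 libraries in black. The licensing and fork sum falls from normoxia to hypoxia in WT, VC and KD, and the mitosis sum rises in WT and VC and, from a lower level, in KD.

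The 4 genes for inhibitors of cyclin-dependent kinases (CDK) did not move as a group, and CDKN2B and CDKN1C differed between VC and OE in opposite directions. CDKN2B (ENSG00000147883, chromosome 9, 22002903 to 22009305), which encodes p15, an inhibitor of CDK4 and CDK6, read 193, 189 and 192 CPM in normoxic WT, 42.0, 45.8 and 41.3 in VC, 288, 296 and 319 in OE and 156, 147 and 148 in KD. VC was far below and OE above all WT libraries, at -2.15 ± 0.10 (adjusted p = 1.08e-16) and 0.65 ± 0.10 (adjusted p = 3.69e-06) against WT, and OE stood 2.81 ± 0.11 above VC (adjusted p = 3.66e-19). KD was lower in normoxia (-0.35 ± 0.10, adjusted p = 0.00889), a call lost without any 1 of the 6 libraries compared (-0.34 to -0.28, adjusted p = 0.0380 to 0.0943) and with DESeq2. In hypoxia it was the 1 member higher in KD than in WT (0.39 ± 0.10, adjusted p = 0.00361), at 149, 151 and 159 against 109, 115 and 127 CPM, and this call ended without any 1 of hypoxic KD 2 and 3 and hypoxic WT 1 and 2 (0.34 to 0.40, adjusted p = 0.0109 to 0.0291).

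CDKN1C, for the imprinted inhibitor p57, was high where CDKN2B was low. It read 4.17, 2.85 and 3.23 CPM in normoxic WT, 6.51, 7.37 and 5.55 in VC, 1.06, 1.27 and 2.02 in OE and 3.64, 3.17 and 2.86 in KD, and was higher in VC (0.93 ± 0.20, adjusted p = 2.81e-04) and lower in OE (-1.25 ± 0.24, adjusted p = 1.21e-04), with -2.18 ± 0.23 for OE against VC. CDKN1B, for p27, was lower in VC (-0.51 ± 0.09, adjusted p = 2.07e-05) and stood at 0.02 to 0.15 against WT in OE and KD at both oxygen levels (not called). In hypoxia CDKN2B read 206, 235 and 311 CPM in OE and 37.2, 30.9 and 38.2 in VC, and OE was higher than WT by 1.10 ± 0.10 (adjusted p = 2.19e-10), while CDKN1C was lower by 1.43 on the log2 scale. CDKN2C, for p18, was lower in KD (-0.88 ± 0.10, adjusted p = 8.39e-08) and OE (-0.57 ± 0.10, adjusted p = 6.38e-05) in normoxia, and in hypoxia stood at -1.33 ± 0.10 in KD, -1.24 ± 0.10 in VC and -1.13 ± 0.10 in OE. Of its exons, 20.4% of the bases lie in a gene without a symbol on the other strand.

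**Figure D4:**
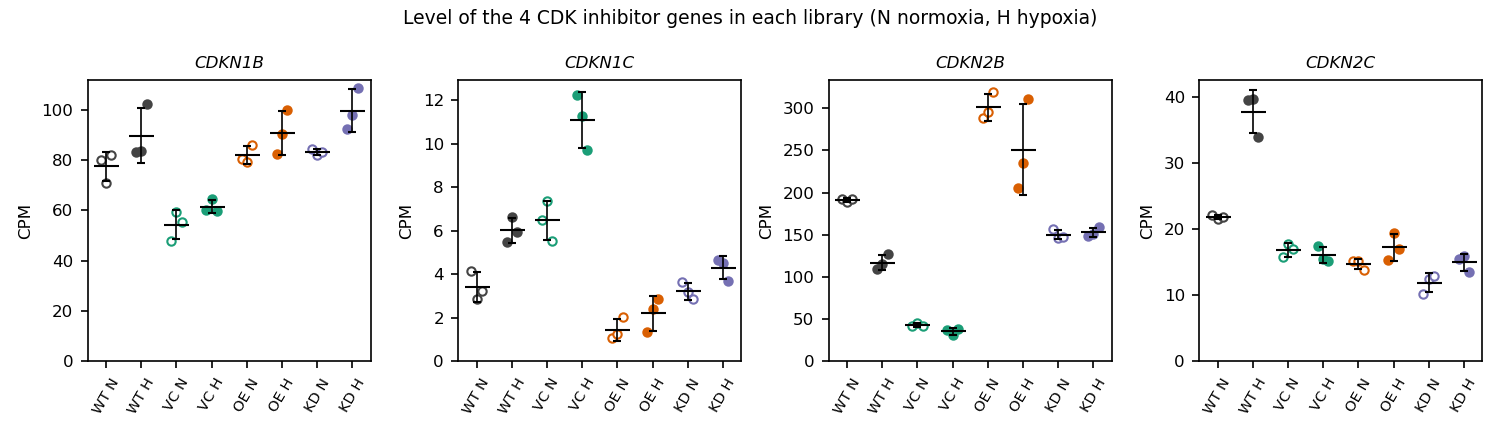
The panels give CDKN1B, CDKN1C, CDKN2B and CDKN2C in CPM (vertical axis, from 0) in each library by line and oxygen level (N normoxia, open points, H hypoxia, filled points), with the mean and SD of 3 libraries in black. CDKN2B is lowest in VC and highest in OE, and CDKN1C is highest in VC and lowest in OE.

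The exposure to hypoxia moved the members of WT in opposite directions by role. In WT 19 of 47 rose and 14 fell, against 9.86% and 11.2% of all genes (21.1% in either direction). Of the mitosis genes 11 of 12 rose, with a median log2 fold change of 0.74, led by CENPF (1.39 ± 0.16, adjusted p = 6.42e-07), UBE2C (1.26 ± 0.10, adjusted p = 2.02e-11) and MKI67 (1.22 ± 0.23, adjusted p = 3.64e-04). UBE2C went from 21.7, 21.8 and 20.4 CPM in normoxia to 54.3, 51.7 and 47.3 in hypoxia, with every hypoxic library above every normoxic one. BIRC5 was the 1 not called (0.36 ± 0.12, adjusted p = 0.0205). Without the first hypoxic WT library, which was high for CENPF and MKI67, these were 1.18 and 0.91, both still called. Of the G2 regulators 6 of 7 rose, with CDC25C at 0.83 ± 0.24, FOXM1 at 0.72 ± 0.10 and CCNB2 at 0.70 ± 0.11, and MYBL2 fell (-0.41 ± 0.11, adjusted p = 0.00461). The CDC25C and MYBL2 calls ended without any 1 of hypoxic WT 1 and 3 and normoxic WT 1, 2 and 3, and of hypoxic WT 1, 2 and 3 and normoxic WT 1 and 2, respectively (adjusted p = 0.0117 to 0.0589 and 0.0121 to 0.0310). The AURKA call ended without any 1 of hypoxic WT 2 and 3 and normoxic WT 2 (adjusted p = 0.0103 to 0.0207). That of CDC20 ended without any 1 of hypoxic WT 2 and 3 and normoxic WT 3 (adjusted p = 0.0147 to 0.0165). That of CDK1 ended without hypoxic WT 3 or normoxic WT 3 (adjusted p = 0.0122 to 0.0126).

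Against this rise, the G1/S and licensing genes of WT fell. Of the G1/S genes 5 of 6 fell, CCNE1 from 4.77, 4.78 and 4.23 CPM to 1.01, 0.828 and 1.09, a log2 fold change of -2.24 ± 0.19 (adjusted p = 1.09e-10), then CDC25A (-1.15 ± 0.16, adjusted p = 1.59e-06) and CCNE2, cyclin E2 (-0.97 ± 0.20, adjusted p = 3.85e-04). Of the licensing and fork genes 6 of 10 fell, MCM6 (-0.91 ± 0.11, adjusted p = 2.44e-07), PCNA (-0.57 ± 0.07, adjusted p = 1.97e-07) and MCM3 (-0.54 ± 0.09, adjusted p = 9.73e-06) most, and CDT1 stood at 0.42 (not called). MCM6, whose promoter is printed above, went from 79.6, 71.4 and 66.0 to 35.2, 39.5 and 41.2 CPM without overlap. CCND1 fell by 0.38 (adjusted p = 8.02e-04). Of the inhibitors, CDKN1C (0.82 ± 0.20, adjusted p = 0.00221) and CDKN2C (0.79 ± 0.10, adjusted p = 1.56e-07) rose and CDKN2B fell (-0.71 ± 0.10, adjusted p = 1.29e-06), and the CDKN1C call ended without any 1 of hypoxic WT 2 and normoxic WT 2 and 3 (adjusted p = 0.0101 to 0.0217).

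In VC 21 members fell and 6 rose in hypoxia, against 10.7% and 10.3% of all genes (21.0% in either direction). All 6 G1/S genes and all 10 licensing and fork genes fell. E2F2 went from 4.21, 3.81 and 4.96 to 0.684, 0.852 and 0.921 CPM (-2.39 ± 0.22, adjusted p = 4.69e-10), CCNE2 changed by -1.83 ± 0.20 (adjusted p = 4.10e-08) and CDC25A by -1.18 ± 0.15 (adjusted p = 1.63e-07), and among the licensing genes MCM6 (-0.94 ± 0.11), CDT1 (-0.85 ± 0.19) and GINS2 (-0.74 ± 0.14) fell most. RRM1 (-0.40 ± 0.09) and RRM2 (-0.43 ± 0.08) fell too, and of the D-type group CCND1 (-0.41 ± 0.09) and CDK4 (-0.32 ± 0.08), the CDK4 call ending without hypoxic VC 2 (-0.26, adjusted p = 0.0202). The 6 that rose were 5 mitosis genes, of which UBE2C (0.92 ± 0.10), CENPF (0.85 ± 0.16) and BUB1B (0.54 ± 0.12) moved most, and CDKN1C (0.77 ± 0.18; 0.68, adjusted p = 0.0147 without normoxic VC 3). MYBL2 was the 1 G2 regulator called (-0.77 ± 0.11).

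In KD 11 fell and 7 rose, against 8.72% and 10.4% of all genes (19.1% in either direction). The 7 that rose were UBE2C (1.06 ± 0.11, adjusted p = 9.97e-09), CENPF (0.89 ± 0.16, adjusted p = 2.43e-04), TOP2A (0.59 ± 0.14), BUB1 (0.56 ± 0.11), TPX2 (0.51 ± 0.10), FOXM1 (0.41 ± 0.11) and CDK6 (0.54 ± 0.11). UBE2C went from 8.07, 10.7 and 10.3 to 20.7, 19.7 and 20.3 CPM, from the lowest level of any group to about that of normoxic WT. Of the G1/S genes 5 of 6 fell, CCNE2 (-0.86 ± 0.22), CCNE1 (-0.84 ± 0.19) and E2F2 (-0.73 ± 0.21) most, and of the licensing and fork genes 5 of 10, PCNA (-0.59 ± 0.07, adjusted p = 1.93e-07), MCM4 (-0.51 ± 0.07) and MCM6 (-0.45 ± 0.11) most. MYBL2 fell again (-0.55 ± 0.12, adjusted p = 7.55e-04). Leaving out a single library ended the calls of TOP2A (any 1 of hypoxic KD 1 and 2 and normoxic KD 1 and 2, adjusted p = 0.0122 to 0.0226), FOXM1 (any 1 of hypoxic KD 1 and normoxic KD 1 and 2, adjusted p = 0.0260 to 0.0288), CDK6 (normoxic KD 2, adjusted p = 0.0163) and MYBL2 (hypoxic KD 3, adjusted p = 0.0120) among these. It also ended those of CCNE1 (hypoxic KD 2, adjusted p = 0.0358), CCNE2 (any 1 of hypoxic KD 2 and 3 and normoxic KD 3, adjusted p = 0.0116 to 0.0186), E2F2 (any 1 of hypoxic KD 2 and 3 and normoxic KD 2 and 3, adjusted p = 0.0111 to 0.0622) and MCM6 (any 1 of hypoxic KD 2 and 3, adjusted p = 0.0101 to 0.0239).

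OE had the fewest calls of the 4 lines. In OE 7 members fell and 1 rose, against 7.4% and 6.47% of all genes (13.9% in either direction), so the count of lower members was above the background and that of higher ones below it. CCNA2 rose (0.44 ± 0.09, adjusted p = 5.10e-04; 29.3, 32.3 and 28.9 CPM in normoxia and 39.9, 43.9 and 39.4 in hypoxia). The members that fell were E2F2 (-0.95 ± 0.21, adjusted p = 9.16e-04), CDC20 (-0.58 ± 0.11), MYBL2 (-0.58 ± 0.12), E2F1 (-0.57 ± 0.12), PLK1 (-0.48 ± 0.11), RRM2 (-0.44 ± 0.08) and CCND1 (-0.36 ± 0.08). Of the licensing and fork genes edgeR called 0 of 10, with 4 at an unadjusted p under 0.05 and 1 by DESeq2. The count of members called was 10 without the first hypoxic OE library and 13 without the second, and the PLK1 call ended without normoxic OE 2 (-0.42, adjusted p = 0.0160). When the fit held the 6 OE libraries alone it called 0 of 47.

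**Figure D5:**
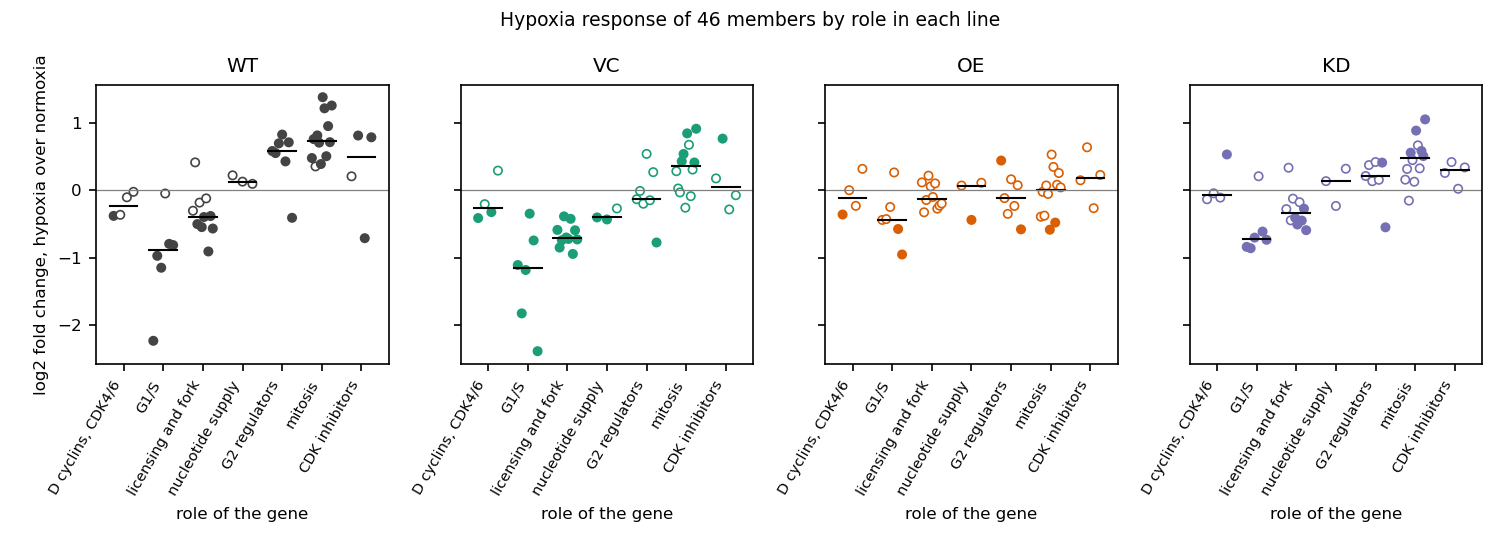
Each point is the log2 fold change of 1 member from normoxia to hypoxia (vertical axis), by role (horizontal axis), in WT, VC, OE and KD (n = 3 libraries per group). Filled points have an edgeR adjusted p under 0.01, black bars are medians, and CCND2 is left out. Most G1/S and licensing points lie below 0 and most mitosis points above 0 in WT, VC and KD, and the OE points lie closer to 0.

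Tests of the difference between a pair of responses asked whether the lines reacted unequally. OE minus WT had 14 of 47 lower and 4 higher, against 2.85% and 3.33% of all genes (6.18% in either direction). Of the mitosis genes 8 of 12 were lower, with UBE2C at -1.22 ± 0.15 (adjusted p = 5.86e-07), PLK1 at -0.99 ± 0.16 (adjusted p = 4.59e-05) and CDC20 at -0.98 ± 0.15 (adjusted p = 2.67e-05). CCNE1 was higher (1.80 ± 0.25, adjusted p = 7.56e-06), as were CDC25A, MCM3 and MCM6. VC minus WT had 11 lower and 1 higher, against 3.53% and 4.49% (8.02% in either direction), with E2F2 at -1.58 ± 0.29 (adjusted p = 2.14e-04), CDT1 at -1.27 ± 0.28 (adjusted p = 0.00351) and CCNE1, the 1 higher, at 1.13 ± 0.24 (adjusted p = 0.00145). UBE2C rose in hypoxia in WT, VC and KD and stood at 0.05 in OE (not called). OE minus VC had 13 higher and 2 lower, against 2.42% and 2.72% (5.13% in either direction). Of the licensing and fork genes 8 of 10 were higher there, MCM3 (0.76 ± 0.12, adjusted p = 7.71e-05), CDC6 (0.71 ± 0.15, adjusted p = 0.00234) and MCM6 (0.67 ± 0.16, adjusted p = 0.00636) most, and the 2 lower were UBE2C (-0.87 ± 0.14) and AURKA (-0.68 ± 0.17). KD minus WT had 2 higher, CCNE1 (1.40 ± 0.28, adjusted p = 0.00380) and CDKN2B (0.73 ± 0.14, adjusted p = 0.00239), against 0.675% of all genes. Lower calls were 0 against 0.31% (0.985% in either direction), with 6 at an unadjusted p under 0.05 and 0 by DESeq2.

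Single libraries moved several of these counts. Without the first hypoxic OE library OE minus WT gave 21 calls and OE minus VC 15. OE minus WT fell to 11 without normoxic OE 2, and OE minus VC to 9 without normoxic OE 3. For KD minus WT the count was 0 without any 1 of normoxic KD 1 and 2, hypoxic WT 2 and normoxic WT 1 and 2, and 1 without any 1 of hypoxic KD 1, normoxic KD 3, hypoxic WT 1 and normoxic WT 3. Leaving out a single library ended the calls of CDC25A (any 1 of normoxic OE 3, hypoxic WT 1 and 3 and normoxic WT 1 and 2, adjusted p = 0.0119 to 0.0292) and MCM6 (any 1 of hypoxic OE 1 and 2, normoxic OE 1 and 3, hypoxic WT 1, 2 and 3 and normoxic WT 1 and 2, adjusted p = 0.0108 to 0.0335) in OE minus WT. It ended those of BIRC5 (any 1 of hypoxic OE 3, normoxic OE 2, hypoxic WT 2 and normoxic WT 3, adjusted p = 0.0109 to 0.0181), BUB1B (any 1 of hypoxic OE 3, normoxic OE 2, hypoxic WT 1 and normoxic WT 3, adjusted p = 0.0118 to 0.0201) and TOP2A (any 1 of normoxic OE 2, hypoxic WT 1 and normoxic WT 2 and 3, adjusted p = 0.0121 to 0.0153). Likewise it ended those of CCNB1 (any 1 of normoxic OE 2 and hypoxic WT 2, adjusted p = 0.0144 to 0.0168), CDK1 (any 1 of hypoxic OE 3, normoxic OE 1 and 2, hypoxic WT 3 and normoxic WT 2 and 3, adjusted p = 0.0119 to 0.0169), FOXM1 (any 1 of normoxic OE 1 and 2, hypoxic WT 1 and 2 and normoxic WT 3, adjusted p = 0.0110 to 0.0186) and CDKN2C (any 1 of hypoxic OE 1 and 3, normoxic OE 1 and 2, hypoxic WT 1 and 2 and normoxic WT 1, 2 and 3, adjusted p = 0.0109 to 0.0290). In VC minus WT it ended those of CDT1 (any 1 of hypoxic WT 1 and 2, adjusted p = 0.010 to 0.0122) and PLK1 (any 1 of hypoxic VC 1 and 2, normoxic VC 2 and 3, hypoxic WT 1, 2 and 3 and normoxic WT 2 and 3, adjusted p = 0.0116 to 0.0309). It did so too for CCNB1 (any 1 of the 12 libraries compared but hypoxic WT 1, adjusted p = 0.0125 to 0.0501) and for CDK1 (any 1 of the 12, adjusted p = 0.0139 to 0.0415). In OE minus VC it ended those of MCM5 (any 1 of hypoxic OE 2 and 3, normoxic OE 1 and 3, hypoxic VC 2 and normoxic VC 1 and 3, adjusted p = 0.0114 to 0.0186), MCM6 (any 1 of hypoxic OE 1 and 2, normoxic OE 1 and 3, hypoxic VC 2 and 3 and normoxic VC 1 and 3, adjusted p = 0.0111 to 0.0227) and MCM7 (any 1 of hypoxic OE 3, normoxic OE 1, 2 and 3, hypoxic VC 2 and 3 and normoxic VC 1 and 3, adjusted p = 0.0103 to 0.0334). It ended there also those of CDC25A (any 1 of normoxic OE 3, hypoxic VC 3 and normoxic VC 2, adjusted p = 0.0102 to 0.0141), CDK2 (any 1 of hypoxic OE 2, normoxic OE 3 and hypoxic VC 2 and 3, adjusted p = 0.0121 to 0.0156), CCNA2 (any 1 of normoxic OE 1, hypoxic VC 2 and normoxic VC 2 and 3, adjusted p = 0.0102 to 0.0176) and AURKA (any 1 of hypoxic OE 3, normoxic OE 2 and 3, hypoxic VC 1, 2 and 3 and normoxic VC 1 and 2, adjusted p = 0.0109 to 0.0364).

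The response of the 11 hypoxia genes (VEGFA, CA9, NDRG1 and others known to rise in low oxygen) was itself smaller in OE. Their median log2 fold change was 0.34 there, against 1.64 in WT, 1.44 in VC and 1.39 in KD. Of the 11 genes, 10 were lower in OE minus WT, against 2.85% of all genes. NDRG1, the strongest of them, rose by 2.52 in OE and 4.86 in WT. The part of this smaller response in the cell cycle differences was not tested. Mean PDK1, a gene of this list, did not rise in hypoxia in any line. It went from 48.9 to 47.1 CPM in WT and from 68.8 to 38.96 in VC. In OE it went from 87.3 to 44.4 CPM, and in KD from 91.8 to 53.7. EGLN3, also listed, was low outside VC, with group means of 0.123 to 2.25 CPM.

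Other genes of the same processes were counted from lists. Of 42 other mitosis genes, 31 were lower in normoxic KD and 37 in hypoxic KD, 15 in normoxic OE and 36 in hypoxic OE. The lower calls among all genes were 9.71%, 9.31%, 10.2% and 13.0% in these comparisons, and the medians of the 42 were -0.65, -1.02, -0.32 and -0.91. HJURP, the chaperone of the centromere histone, was at -1.56 in hypoxic KD and -1.48 in hypoxic OE, and KIF4A, a chromosome motor, at -1.10 in normoxic KD. CDC25B, another CDK phosphatase, was lower in normoxic OE (-1.05) and higher in normoxic VC (1.25). In hypoxic WT 28 of the 42 rose against 9.86% of all genes, HJURP (1.17), NEK2 (1.04) and NUF2 (1.02) most. Of 31 other replication genes, 14 were lower in normoxic KD, 10 in normoxic OE, and 17 fell in hypoxic VC against 10 in WT, 12 in KD and 5 in OE. In the same order the lower calls among all genes were 9.71% and 10.2%, then 10.7%, 11.2%, 8.72% and 7.4%. CDC45, the helicase partner of MCM and GINS, was at -1.09 in KD and -0.78 in OE, and in hypoxia changed by -0.94 in WT and -1.52 in VC. POLE2, a subunit of polymerase epsilon, was at -1.57, -1.42 and -1.73 in WT, VC and KD.

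Of 16 pocket protein, E2F and MuvB genes, normoxic VC had 5 higher and 2 lower, against 19.8% and 16% of all genes. The repressor E2F8 was at a log2 fold change of 3.26 there and E2F5 at 1.15. RBL1, for the pocket protein p107, was lower in normoxic KD (-0.57). In hypoxic WT the repressor E2F6 fell (-1.16), with E2F4 at -0.95 and E2F3 at -0.89. Of the 4 other CDK inhibitors, CDKN1A, for p21, averaged 549 ± 15.2 CPM in normoxic WT (SD, n = 3), 249.9 ± 5.26 in VC, 399.6 ± 28.0 in OE and 251 ± 5.33 in KD. It was lower in all 3, at -1.14, -0.46 and -1.13. CDKN2A, the neighbour of CDKN2B, was lower in VC as well (-1.12). CDKN2D, for p19, rose in hypoxic WT (1.42) and KD (1.28). Of 7 growth signal genes upstream of cyclin D, EGFR was higher in OE (1.00) and VC (1.12). ERBB3, a receptor of the epidermal growth factor family, was lower in OE (-1.78) and higher in KD (1.65). ERBB3 was close to the floor of 3 counts, with means of 0.807 CPM in normoxic WT, 0.226 in OE and 2.52 in KD. Normoxic means of MET were 378 CPM in WT, 527 in OE and 535 in KD. In the same order those of IGF1R were 171, 295 and 120, and those of FGFR1 130, 98.3 and 230. In hypoxia IGF1R rose in WT (1.17), VC (1.19), KD (1.21) and OE (0.44).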

How the data were processed

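The authors deposited unnormalized counts of reads per gene for each library, from rRNA-depleted RNA (KAPA RNA HyperPrep with RiboErase, single reads of 50 bases) mapped with STAR 2.27a to GRCh38. The file headers name the Ensembl 98 annotation and the study methods a UCSC transcript set, and the strand used in counting is not given in the sources used here. A table of TMM-normalized values was not used. The 24873 genes with at least 10 counts in all libraries together entered 1 fit of 8 groups (edgeR 4.0.16, TMM, robust quasi-likelihood F-test, tested on simulated data), with Benjamini-Hochberg adjustment over these genes and a threshold of 0.01. Standard errors come from the fold change and its F statistic. Depths of 10796813 to 19779450 counts put the floor of 3 counts at 0.150 to 0.252 CPM, for counting error only.

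Alternatives were DESeq2 1.42.0, RLE factors, 2 other filters, an adjusted p under 0.05, library sizes without mitochondrial and ribosomal RNA, only the libraries compared, a replicate block, and leaving out libraries. Same-numbered libraries correlated over 0.1 in every pair in 4 of 12 comparisons (KD against WT at both oxygen levels, OE against VC in normoxia, and hypoxia in VC, over 13922 genes), and the block entered as an alternative, with values printed from the fit without it. The block gave 36, 34, 29 and 28 members there, against 32, 33, 28 and 27 without it. The text names up to 3 called members of largest change per role, called members that went against their role, groups of 5 or fewer and members whose responses differed. Members and lists were chosen with earlier results of these data known. Promoters are from RefSeq (GRCh38.p14) and gene positions from GENCODE 44.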

Additional observations from a re-analysis of the deposited data

Results flagged for a closer look

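The responses to hypoxia of different lines differed by the test of the difference itself (edgeR, adjusted p under 0.01 over all genes) for 47 pairs of a member and a contrast, given here as differences of log2 fold changes. Every alternative kept 3 of the 18 calls of OE minus WT, 2 of the 15 of OE minus VC, and 0 of the 12 of VC minus WT and of the 2 of KD minus WT. In OE minus WT the response was lower for UBE2C -1.22, CCNB2 -1.05, PLK1 -0.99, CDC20 -0.98, AURKA -0.87, TOP2A -0.87, BUB1B -0.76, BUB1 -0.74, BIRC5 -0.73, CCNB1 -0.67, CDK1 -0.66, FOXM1 -0.64, RRM2 -0.57 and CDKN2C -0.56, and higher for CCNE1 1.80, CDC25A 0.90, MCM6 0.64 and MCM3 0.61. The lower ones include some of the mitosis genes that rose in WT, such as PLK1, AURKA and BUB1, but not AURKB, TPX2, CENPF and MKI67. BIRC5, also among the lower ones, was not called in the response of WT.

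In VC minus WT it was lower for E2F2 -1.58, CDT1 -1.27, CCNB2 -0.90, CDKN2C -0.86, CCNA2 -0.72, CDC20 -0.65, RRM1 -0.63, PLK1 -0.59, CDK1 -0.58, CCNB1 -0.56 and RRM2 -0.56, and higher for CCNE1 1.13. These contrasts share the WT libraries. In OE minus VC it was lower for UBE2C -0.87 and AURKA -0.68, and higher for E2F2 1.44, CCNE2 1.40, CDC25A 0.94, MCM3 0.76, CDC6 0.71, MCM6 0.67, MCM4 0.62, CDK2 0.61, MCM2 0.61, CCNA2 0.58, PCNA 0.54, MCM5 0.53 and MCM7 0.37, and the MCM genes and PCNA are among the higher. In KD minus WT it was higher for CCNE1 1.40 and CDKN2B 0.73.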

How the results depend on the processing

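No called member changed direction in any alternative, and 203 of 365 member calls over the 16 comparisons were kept in all of them. DESeq2 ended 4 of the 365 calls, RLE factors 5, no filter 10, removal of mitochondrial and ribosomal RNA genes 4 and the filterByExpr filter 0, while a fit of only the libraries compared ended 53. The replicate block ended 0 calls and added 12 (KD against WT in normoxia 36 members with the block, 32 without, and hypoxia in KD 20 and 18). With only the libraries compared, the members called were 18 for OE against VC in hypoxia (30 in the fit of all libraries), 0 for hypoxia in OE (8), 7 for OE minus WT (18), 19 for VC minus WT (12) and 6 for OE minus VC (15). Hypoxia in OE gave 17 members at an adjusted p under 0.05 and 12 with no filter on low counts, and KD minus WT gave 4 with no filter. DESeq2 split the hypoxia calls of KD into 10 higher and 10 lower, against 7 and 11. Leaving out a library, or a replicate number in all groups, gave 20 to 31 members for hypoxia in WT, 15 to 29 in VC, 2 to 13 in OE and 7 to 17 in KD, and 4 to 21 for OE minus WT, 0 to 2 for KD minus WT, 1 to 11 for VC minus WT and 2 to 15 for OE minus VC. The lowest counts came without replicate 2 in all groups for hypoxia in each line, with 20 in WT, 15 in VC, 2 in OE and 7 in KD. The cause of these changes was not tested. Depth limited CCND2, for which no fold change is given.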
